A study of Mus musculus with 6 samples.

Results

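The nuclear genes of the mitochondrial respiratory chain and ATP synthase were followed in mouse liver RNA-seq after an acetaminophen overdose, with and without costunolide given beforehand. Members were taken by gene name: symbols beginning Nduf, Uqcr, Cox4i, Cox5, Cox6, Cox7, Cox8 or Atp5, and *Sdha*, *Sdhb*, *Sdhc*, *Sdhd*, *Cyc1* and *Cycs*, without names beginning Gm or holding -ps. They also needed a mean of at least 1 FPKM (fragments per kilobase of transcript, scaled to depth, the deposited expression level) over the 6 libraries. This gave 91 of the 55401 genes in the table, of which 10051 reached that level. Another 9 rows with a fitting name stayed under it. *Ndufaf5* (1.53 FPKM) and *Cox7a1* (1.58 FPKM) lay just inside the threshold, *Ndufa4l2* (0.947 FPKM) and *Cox6b2* (0.762 FPKM) just outside. Of the 91 members, 78 belong to the 5 complexes, with 36 in complex I, 4 in complex II, 9 in complex III, 12 in complex IV and 17 in complex V. A further 8 are Ndufaf assembly factors of complex I, and *Cycs* and *Cox7a2l* stand alone. The other 3, *Cox6c2*, *Ndufb4c* and *Ndufs6b*, are annotated as processed pseudogenes and were kept apart from the complexes, a choice made after their annotation was seen.

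All 6 libraries came from liver of C57BL/6 mice, with 2 libraries in each of 3 groups. Control libraries (replicates 1 and 3) carry no treatment and no hour of collection in their labels. APAP libraries (replicates 1 and 3) stem from mice 6 h past an injection of 400 mg/kg acetaminophen (APAP) into the peritoneum. COS+APAP libraries (replicates 2 and 3) came from mice that had also received costunolide (COS, a sesquiterpene lactone from plants) at 20 mg/kg, 12 h and again 40 min ahead of the same APAP dose. Groups follow the titles, source names and treatment labels. The protocol text assigns the costunolide pretreatment to samples 5 and 6, and in accession order those are the libraries titled as the APAP model. Were the text correct and the labels wrong, the names APAP and COS+APAP would have to be swapped here and the signs between them reversed. COS+APAP titles carry the prefix 2 and all others the prefix 1, so whatever goes with the prefix cannot be told apart from COS. The labels do not tie each library to its own mouse, so p-values speak only to the spread among libraries, which may be technical.

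The respiratory chain sits in the inner mitochondrial membrane. Complex I takes electrons from NADH and complex II from succinate, both pass them to coenzyme Q, complex III hands them on to cytochrome c, and complex IV gives them to oxygen. Complexes I, III and IV pump protons while they do so, and complex V, the ATP synthase, lets the protons flow back to make ATP. Apart from complex II, each complex joins subunits made from nuclear genes with a few encoded by the mitochondrial genome, and assembly factors put them together without staying in the finished enzyme. In the liver, the reactive metabolite of APAP is known to bind mitochondrial proteins and to impair respiration.

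The libraries held 71115112 to 76669799 estimated counts, and the members took 0.939% to 1.27% of them. The median member had 6415 to 9730 counts per library, and the lowest count of any member was 33 to 88. Summed FPKM of 8 hepatocyte markers was 66056 and 66280 in control, 73273 and 70620 after APAP, and 61622 and 57081 with COS+APAP. The groups did not overlap on this scale, but FPKM over all genes did not sum to an equal total. That total was 526714.4 and 561227.6 in control, 485290.8 and 474541.6 after APAP, and 517288.5 and 505738.1 with COS+APAP. Of these 8 markers, 2 were higher and 1 lower after APAP, and 1 was higher with COS against APAP. With COS+APAP against control 1 was higher and 0 were lower, with a median log2 fold change of 0.07 under TMM scaling. *Ckm*, *Myh1*, *Myh4*, *Myh6* and *Myl1*, defining genes of striated muscle, another tissue rich in respiratory chain transcripts, were listed at 0 in all 6 libraries. The other 4 of 9 muscle markers (*Acta1*, *Tnnt3*, *Mb* and *Des*) summed to 0.41 to 1.77 FPKM and fell under the level for testing. In bulk tissue, fewer cells of a type and less RNA per cell cannot be told apart.

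Nuclear respiratory factor 1 (NRF1), GA-binding protein of the ETS family, YY1 and the estrogen-related receptor ERRalpha are transcription factors known to bind promoters of respiratory chain genes. Promoters of 5 members are shown, because these members changed in opposite directions and 4 of the promoters hold such motifs. They belong to *Cox7a2l*, *Sdha* and *Sdhd*, which were higher after APAP, and to *Ndufb4* and *Ndufaf1*, which were lower. Each is the stretch of 250 bases before the transcription start in RefSeq (GRCm38.p6). All are on the minus strand and printed 5′ to 3′, with motif matches in capitals. The stretches are chr17:83514334-83514583 for *Cox7a2l*, chr13:74350241-74350490 for *Sdha*, chr9:50603850-50604099 for *Sdhd*, chr16:37654369-37654618 for *Ndufb4* and chr2:119662835-119663084 for *Ndufaf1*. That of *Cox7a2l* lies wholly, and those of *Sdha* and *Ndufb4* in part, inside the gene span of the deposited table, which begins further upstream.
Cox7a2l: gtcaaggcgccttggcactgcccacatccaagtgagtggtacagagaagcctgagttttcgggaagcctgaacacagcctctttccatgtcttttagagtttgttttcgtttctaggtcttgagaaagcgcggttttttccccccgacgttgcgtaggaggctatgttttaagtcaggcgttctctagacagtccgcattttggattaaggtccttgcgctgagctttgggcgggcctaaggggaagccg
Sdha: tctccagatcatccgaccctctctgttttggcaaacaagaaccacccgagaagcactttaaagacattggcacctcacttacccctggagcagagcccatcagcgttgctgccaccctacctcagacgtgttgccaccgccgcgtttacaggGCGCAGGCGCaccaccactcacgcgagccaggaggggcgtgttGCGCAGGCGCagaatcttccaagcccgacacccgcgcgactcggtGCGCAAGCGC
Sdhd: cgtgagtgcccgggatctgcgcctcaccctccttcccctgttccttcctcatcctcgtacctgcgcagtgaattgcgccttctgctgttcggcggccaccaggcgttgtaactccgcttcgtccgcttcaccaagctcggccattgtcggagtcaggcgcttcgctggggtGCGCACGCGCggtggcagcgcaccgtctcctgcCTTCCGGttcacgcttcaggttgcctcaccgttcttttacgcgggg
Ndufb4: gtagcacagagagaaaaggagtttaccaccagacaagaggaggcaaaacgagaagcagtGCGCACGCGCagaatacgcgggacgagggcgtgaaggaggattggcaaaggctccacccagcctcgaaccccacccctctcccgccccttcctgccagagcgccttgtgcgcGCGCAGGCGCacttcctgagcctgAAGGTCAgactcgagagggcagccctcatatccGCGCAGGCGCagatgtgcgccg
Ndufaf1: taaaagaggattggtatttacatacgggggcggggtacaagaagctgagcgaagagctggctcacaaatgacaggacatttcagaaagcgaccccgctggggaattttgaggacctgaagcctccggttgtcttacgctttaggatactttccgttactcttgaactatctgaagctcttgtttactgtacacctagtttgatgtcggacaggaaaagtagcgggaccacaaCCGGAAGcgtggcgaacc

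The *Sdha* promoter held 3 matches to the NRF1 motif. That of *Ndufb4* held 3 such matches and 1 to the ERRalpha motif, AAGGTCA. *Sdhd* had 1 NRF1 match and, on the other strand, 1 match to the ETS motif, CCGGAAG. *Ndufaf1* had 1 ETS match. None of the 4 motifs, the YY1 motif AAGATGGC among them, was found in the stretch before *Cox7a2l*. Both strands were searched, and none of the printed matches overlapped another. The promoter window of RefSeq, which also holds 50 bases after the start, was found for 74 of the 91 members. NRF1 matches were in 25.7% of these 74, in 12.1% of the promoters of the 7110 tested symbols with a window and in 5.19% of all 27025. ETS matches were in 25.7%, 22.0% and 9.93%, YY1 matches in 14.9%, 5.78% and 3.19%, and ERRalpha matches in 10.8%, 4.35% and 5.38%. At least 1 of the 4 motifs was in 58.1% of the members and in 37.8% of the tested symbols. Among members with a window, NRF1 matches were in 3 of the 7 that were higher after APAP and in 5 of the 27 that were lower. ETS matches were in 2 of these 7 and in 10 of these 27, ERRalpha matches in 2 and 3, and YY1 matches in 0 and 3. Of the 40 members with a window that did not pass, 11 held NRF1, 7 ETS, 3 ERRalpha and 8 YY1 matches. Matches to NRF1, ETS and ERRalpha thus stood on both sides, and those to YY1 among lower members and members that did not pass. With 7 higher members, the lack of a YY1 match among them cannot be read as a difference. A match describes the letters and no binding was measured.

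Per length of transcript, complex IV had the most abundant member and also the least abundant subunit. *Cox6a1*, the liver isoform of a small subunit, averaged 429 FPKM over the 6 libraries, and *Cox7a1*, the heart and muscle isoform of another subunit, 1.58 FPKM. In complex I the range ran from *Ndufab1*, the acyl carrier protein, at 4.97 FPKM to *Ndufa2* at 153.8 FPKM, in complex II from *Sdhc* (40.7) to *Sdhd* (99.8), in complex III from *Uqcrc1* (53.7) to *Uqcr10* (198.7), and in complex V from *Atp5l* (19.5) to *Atp5a1* (185.9). These ranks rest on the length taken for each gene in FPKM and need not hold in counts. In control replicate 1, *Atp5l* had 12045 estimated counts at 22.45 FPKM, and *Atp5k* 5850 at 114.06 FPKM. *Ndufab1* had 3628 counts there at 6.32 FPKM, and *Ndufc1* 2374 at 19.06 FPKM. Muscle isoforms stood far below their liver counterparts. *Cox6a2* and *Cox8b* had mean levels of 0.087 and 0.038 FPKM and *Cox4i2*, an isoform known from lung, 0.055 FPKM, all under the threshold for members.

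**Figure D1:**
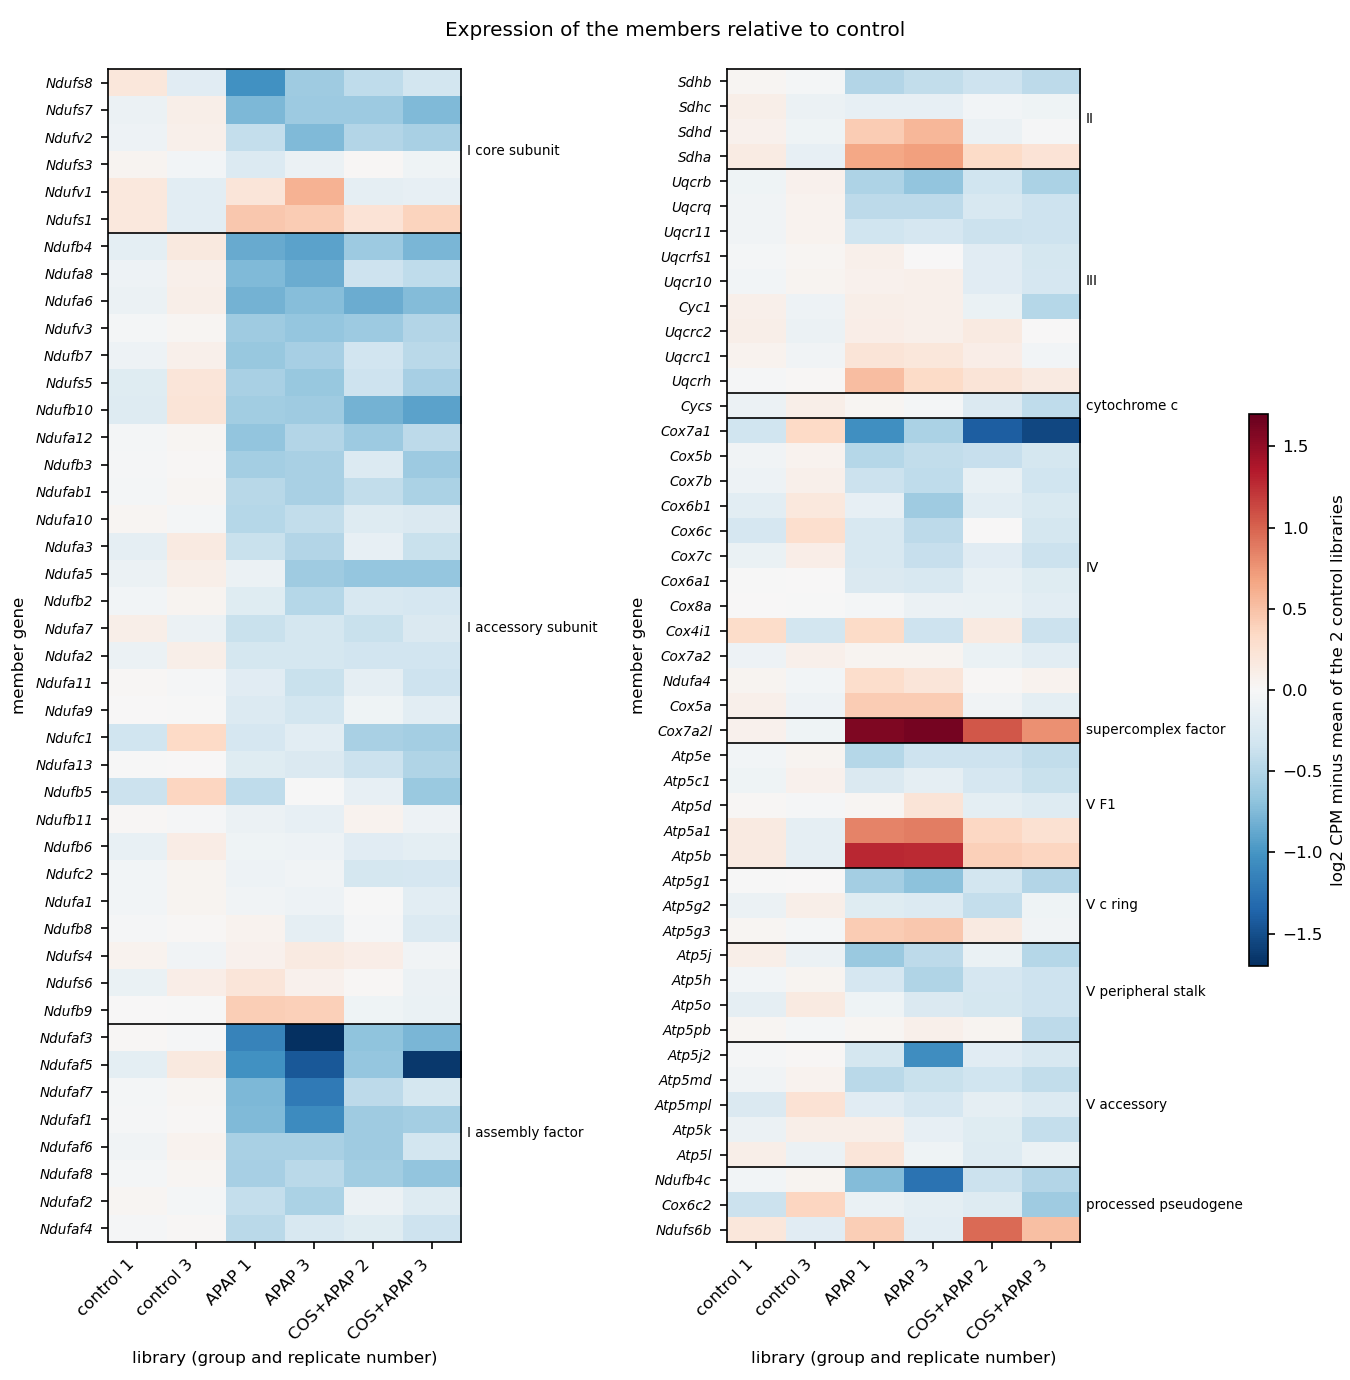
Heat map of all but 1 of the 91 members (rows, grouped by complex) in the 6 libraries (columns). Colour gives log2 CPM, TMM scaled, minus the mean of the 2 control libraries, red for higher and blue for lower; after APAP most complex I rows are blue, and *Cox7a2l*, *Atp5b* and *Atp5a1* are the reddest rows.

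The first comparison asked how these genes stood 6 h after the APAP overdose. More members were lower than higher, and the members of a single complex did not move as a block. Of the 91 members, 10 were higher and 30 lower than control in edgeR's quasi-likelihood test (adjusted p below 0.05 over the 10051 genes), and 51 did not pass. Over all genes tested 45.4% were called, 23.3% higher and 22.1% lower, beside 11.0% of the members higher and 33.0% lower. The log2 fold change was negative for 66 members (72.5%, beside 50.1% of all genes). Its median was -0.27 over the members and -0.00 over all genes. Most differences were small: 2 members rose and 1 fell by at least 2-fold.

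These counts depend on how libraries are scaled. With library totals alone in place of TMM the median of all genes moves to -0.15 on the log2 scale, 4 members are higher and 43 lower. The calls of *Ndufb9*, *Sdhd*, *Uqcrh*, *Cox5a* and *Atp5g3* as higher are among those lost there. Leaving out control replicate 3, APAP replicate 1 or APAP replicate 3 gives 4, 5 and 5 higher and 12, 16 and 14 lower members. The 4 members *Cox7a2l*, *Atp5b*, *Atp5a1* and *Sdha* stayed higher and *Ndufaf3*, *Ndufaf1*, *Ndufb4*, *Ndufa8*, *Ndufa6*, *Ndufs7*, *Ndufv3* and *Atp5g1* stayed lower whichever of the 6 libraries was left out.

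**Figure D2:**
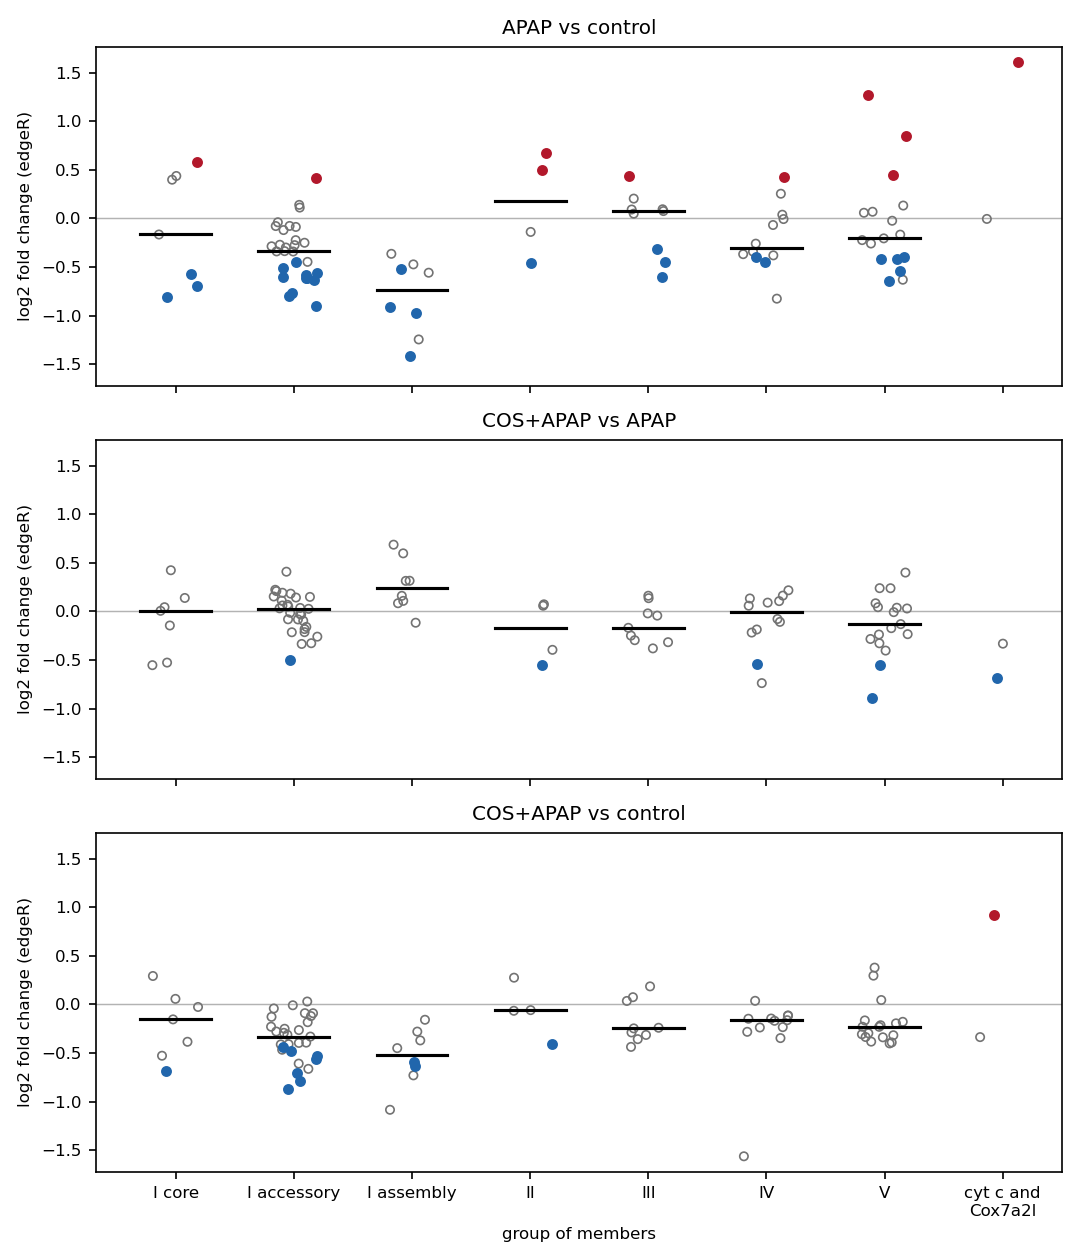
Log2 fold change of each protein-coding member (points) by complex in the 3 comparisons (panels), from edgeR. Filled points passed at an adjusted p below 0.05 (red higher, blue lower), open points did not, and black bars are medians of groups of more than 2; the assembly factors of complex I all lie below 0 in the top panel, and complex V spans from -0.64 to 1.27 there.

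Complex I, the NADH dehydrogenase, is built from core subunits that carry the flavin and iron-sulfur clusters and from many accessory subunits around them. After APAP, 2 of its 36 nuclear subunits were higher, 14 were lower and 20 did not pass, with a median log2 fold change of -0.32. Its median in single libraries, as log2 difference from the control mean, was -0.29 and -0.35 in APAP and -0.04 and 0.04 in control.

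Among the core subunits 3 were lower. *Ndufs8*, a subunit with iron-sulfur clusters (chr19:3908863-3912734), was at 76.6 and 60.05 FPKM in control, 29.8 and 41.5 after APAP, and 45.4 and 48.7 with COS+APAP. Both APAP libraries lay below both control libraries and the COS+APAP libraries stood between. It fell by 0.81 on the log2 scale (SE 0.20, adjusted p = 0.0223). *Ndufs7*, which carries the last cluster before coenzyme Q, was at 50.4 and 58.7 FPKM in control, 28.5 and 32.8 after APAP, and 32.05 and 28.7 with COS+APAP, and fell by 0.69 (SE 0.13, adjusted p = 0.00909). Both treated groups lay below control and overlapped each other. *Ndufv2* fell by 0.57 (adjusted p = 0.0252).

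Core subunits that did not pass included *Ndufs1* and *Ndufv1*. *Ndufs1*, the largest subunit of the complex, had a log2 fold change of 0.44 (adjusted p = 0.0631) and *Ndufv1*, which binds NADH, 0.40 (adjusted p = 0.13).

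Among the 29 accessory subunits 1 was higher and 11 were lower. *Ndufb4*, in the membrane arm (chr16:37647170-37654453), was at 28.2 and 36.2 FPKM in control, 15.7 and 15.7 after APAP, and 18.8 and 16.6 with COS+APAP. All 4 treated libraries lay below both control libraries. It fell by 0.90 on the log2 scale in APAP (SE 0.15, adjusted p = 0.00697). Its processed copy *Ndufb4c* had a log2 fold change of -0.98 (adjusted p = 0.0229), and reads of such near-identical genes can be split between them.

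*Ndufa8*, a subunit with cysteine motifs that face the intermembrane space (chr2:36036326-36049406), was at 154.3 and 177.8 FPKM in control, 87.5 and 85.6 after APAP, and 117.1 and 109.8 with COS+APAP. The 3 groups did not overlap, and COS+APAP stood between the others. It fell by 0.80 in APAP (SE 0.11, adjusted p = 0.00438). *Ndufa6*, a LYR-motif subunit, was at 77.9 and 90.3 FPKM in control, 43.1 and 46.9 after APAP, and 42.3 and 44.8 with COS+APAP. It fell by 0.76 (SE 0.12, adjusted p = 0.00513), and the treated groups overlapped below control. *Ndufb10*, *Ndufb7*, *Ndufs5*, *Ndufv3*, *Ndufa12*, *Ndufb3*, *Ndufab1* and *Ndufa10* fell as well, by 0.45 to 0.63.

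*Ndufb9*, a LYR-motif subunit of the membrane arm (chr15:58933756-58939488), was the accessory subunit that rose. It was at 132.2 and 133.4 FPKM in control, 158.3 and 163.2 after APAP, and 114.3 and 109.8 with COS+APAP. In FPKM, which is scaled to library totals, the groups did not overlap, with APAP highest and COS+APAP lowest. The rise in APAP was 0.41 (SE 0.09, adjusted p = 0.0176). With TMM scaling, COS+APAP against control was -0.09 in edgeR and did not pass (adjusted p = 0.532).

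Assembly factors of complex I had the most negative median of the member groups, -0.73 on the log2 scale, with a negative log2 fold change in 8 of 8 and a call in 4. *Ndufaf3*, which acts early in building the arm that binds coenzyme Q (chr9:108565537-108567434), was at 11.4 and 11.3 FPKM in control, 4.59 and 3.10 after APAP, and 6.39 and 5.88 with COS+APAP. The groups did not overlap. It fell by 1.42 on the log2 scale (SE 0.23, adjusted p = 0.006), the largest fall among the members. *Ndufaf3* overlaps *Impdh2* on the other strand (mean 6.21 FPKM), and no source names the strand setting of the counting.

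*Ndufaf1*, a factor of the membrane arm (chr2:119655446-119662821), was at 15.7 and 16.3 FPKM in control, 8.45 and 7.01 after APAP, and 9.49 and 9.54 with COS+APAP. It fell by 0.91 (SE 0.15, adjusted p = 0.0063), and again both treated groups lay below control. *Ndufaf7*, a methyltransferase, fell by 0.97 (adjusted p = 0.0117) and *Ndufaf8* by 0.52 (adjusted p = 0.0318). *Ndufaf5* had a log2 fold change of -1.24 but missed the threshold (adjusted p = 0.0506), at levels of 0.71 to 2.87 FPKM.

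Complex II, succinate dehydrogenase, has 4 subunits, all nuclear, and links the citric acid cycle to the chain. They parted: 2 were higher after APAP, 1 was lower and 1 did not pass. *Sdha*, the flavoprotein that oxidises succinate (chr13:74322254-74350280), was at 54.1 and 45.4 FPKM in control, 70.0 and 74.1 after APAP, and 56.1 and 52.0 with COS+APAP. The APAP libraries lay above all others, and control and COS+APAP overlapped. It rose by 0.67 on the log2 scale (SE 0.13, adjusted p = 0.0105).

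*Sdhd*, a membrane anchor (chr9:50596357-50603812), was at 99.6 and 90.7 FPKM in control, 114.1 and 130.3 after APAP, and 80.4 and 83.7 with COS+APAP. Its rise was 0.50 (SE 0.11, adjusted p = 0.0186). *Sdhb*, the iron-sulfur subunit that binds *Sdha* protein (chr4:140961203-140979193), was at 90.1 and 87.9 FPKM in control, 56.3 and 61.4 after APAP, and 62.8 and 58.2 with COS+APAP. It fell by 0.46 (SE 0.10, adjusted p = 0.0156), and all 4 treated libraries lay below control. *Sdhc*, the other anchor, had a log2 fold change of -0.14 (adjusted p = 0.343).

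Complex III, the cytochrome bc1 complex, had 1 higher and 3 lower of 9 members, and its median log2 fold change of 0.08 turned to -0.08 under library totals. *Uqcrb*, a subunit beside cytochrome b (chr13:66900617-66905378), was at 134.7 and 151.5 FPKM in control, 88.7 and 83.0 after APAP, and 102.2 and 87.6 with COS+APAP. It fell by 0.60 (SE 0.13, adjusted p = 0.0144). *Uqcrq* fell by 0.45 (adjusted p = 0.0201) and *Uqcr11* by 0.31 (adjusted p = 0.0497), both small accessory subunits. *Uqcrh*, the hinge protein that docks cytochrome c, was at 79.8 and 83.3 FPKM in control, 105.1 and 94.9 after APAP, and 85.7 and 80.8 with COS+APAP. It rose by 0.43 (SE 0.11, adjusted p = 0.0271). The catalytic *Cyc1* (cytochrome c1, 0.09) and *Uqcrfs1* (the Rieske iron-sulfur protein, 0.05) and the core proteins *Uqcrc1* (0.20) and *Uqcrc2* (0.09) did not pass. *Cycs*, cytochrome c itself, had a log2 fold change of -0.00 (adjusted p = 0.98).

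Complex IV, cytochrome c oxidase, had 1 higher, 2 lower and 9 members that did not pass, with a median of -0.30. *Cox5a*, a subunit on the matrix side (chr9:57521274-57532426), was at 55.2 and 49.4 FPKM in control, 62.8 and 65.4 after APAP, and 45.4 and 41.3 with COS+APAP. In FPKM the 3 groups did not overlap, with APAP highest. With TMM scaling, COS+APAP against control was -0.12 in edgeR and did not pass (adjusted p = 0.505). *Cox5a* rose by 0.43 in APAP (SE 0.11, adjusted p = 0.0282). *Cox5b*, its zinc-binding partner on the same side (chr1:36691449-36693681), was at 107.5 and 118.9 FPKM in control, 72.3 and 78.2 after APAP, and 78.1 and 81.7 with COS+APAP, and fell by 0.45 (SE 0.10, adjusted p = 0.0188). *Cox7b* fell by 0.40 (adjusted p = 0.0477).

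The abundant *Cox6a1*, *Cox8a*, *Cox7a2* and *Ndufa4* did not pass, with log2 fold changes of -0.26, -0.07, 0.04 and 0.25. *Cox4i1* differed more between libraries of a group than between groups. Its FPKM was 290.2 and 189.8 in control, 263.7 and 169.8 after APAP, and 236.7 and 162.6 with COS+APAP, lower in the library numbered 3 each time.

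*Cox7a2l* (SCAF1) resembles the Cox7a subunits and is classed as a factor of supercomplexes, which join complexes III and IV. Supercomplexes were not measured, and these data do not show whether its protein acts in them in this mouse strain. *Cox7a2l* had the largest difference of all members (chr17:83501918-83517330). It was at 25.7 and 23.6 FPKM in control, 66.2 and 70.4 after APAP, and 46.3 and 37.7 with COS+APAP. The 3 groups did not overlap, and COS+APAP stood between the others. It rose by 1.60 on the log2 scale in APAP (SE 0.14, adjusted p = 0.00151), 3.04-fold. The isoforms it resembles did not pass: *Cox7a2* had 0.04 (adjusted p = 0.796) and *Cox7a1* -0.82 (adjusted p = 0.151).

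Complex V had 3 higher, 5 lower and 9 members that did not pass, with a median of -0.20 and the widest span of the 5 complexes. Its catalytic head F1 is a ring of alpha and beta subunits around a central stalk. *Atp5b*, the catalytic beta subunit (chr10:128083273-128090391), was at 96.7 and 78.8 FPKM in control, 190.0 and 195.4 after APAP, and 104.3 and 100.6 with COS+APAP. The APAP libraries stood apart from the other 4. It rose by 1.27 on the log2 scale (SE 0.14, adjusted p = 0.00234), 2.41-fold. *Atp5b* overlaps *Gm50449* on the same strand, a gene with a mean of 1.297 FPKM.

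*Atp5a1*, the alpha subunit, was at 163.4 and 134.5 FPKM in control, 237.0 and 251.9 after APAP, and 170.3 and 158.3 with COS+APAP. It rose by 0.85 (SE 0.14, adjusted p = 0.00634), and control and COS+APAP overlapped. The subunits of the central stalk did not follow: *Atp5c1* (gamma) had -0.20 and *Atp5d* (delta) 0.13, neither of which passed, and *Atp5e* (epsilon) fell by 0.42 (adjusted p = 0.0245).

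The rotating c ring is made of a single protein that 3 genes, *Atp5g1*, *Atp5g2* and *Atp5g3*, encode with different import sequences, and these genes parted. *Atp5g1* (chr11:96068852-96075670) was at 43.9 and 45.2 FPKM in control, 26.6 and 25.3 after APAP, and 32.4 and 28.2 with COS+APAP, and fell by 0.64 (SE 0.11, adjusted p = 0.00826). *Atp5g3* (chr2:73908447-73911326) was at 104.8 and 102.3 FPKM in control, 125.1 and 131.7 after APAP, and 103.5 and 88.3 with COS+APAP, and rose by 0.45 (SE 0.12, adjusted p = 0.0257). *Atp5g2* had a log2 fold change of -0.22 (adjusted p = 0.269). In the peripheral stalk, which holds the head still, *Atp5j* fell by 0.54 (adjusted p = 0.0467) and *Atp5h* by 0.40 (adjusted p = 0.0401). *Atp5md*, a small membrane subunit, fell by 0.42 (adjusted p = 0.0239).

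**Figure D3:**
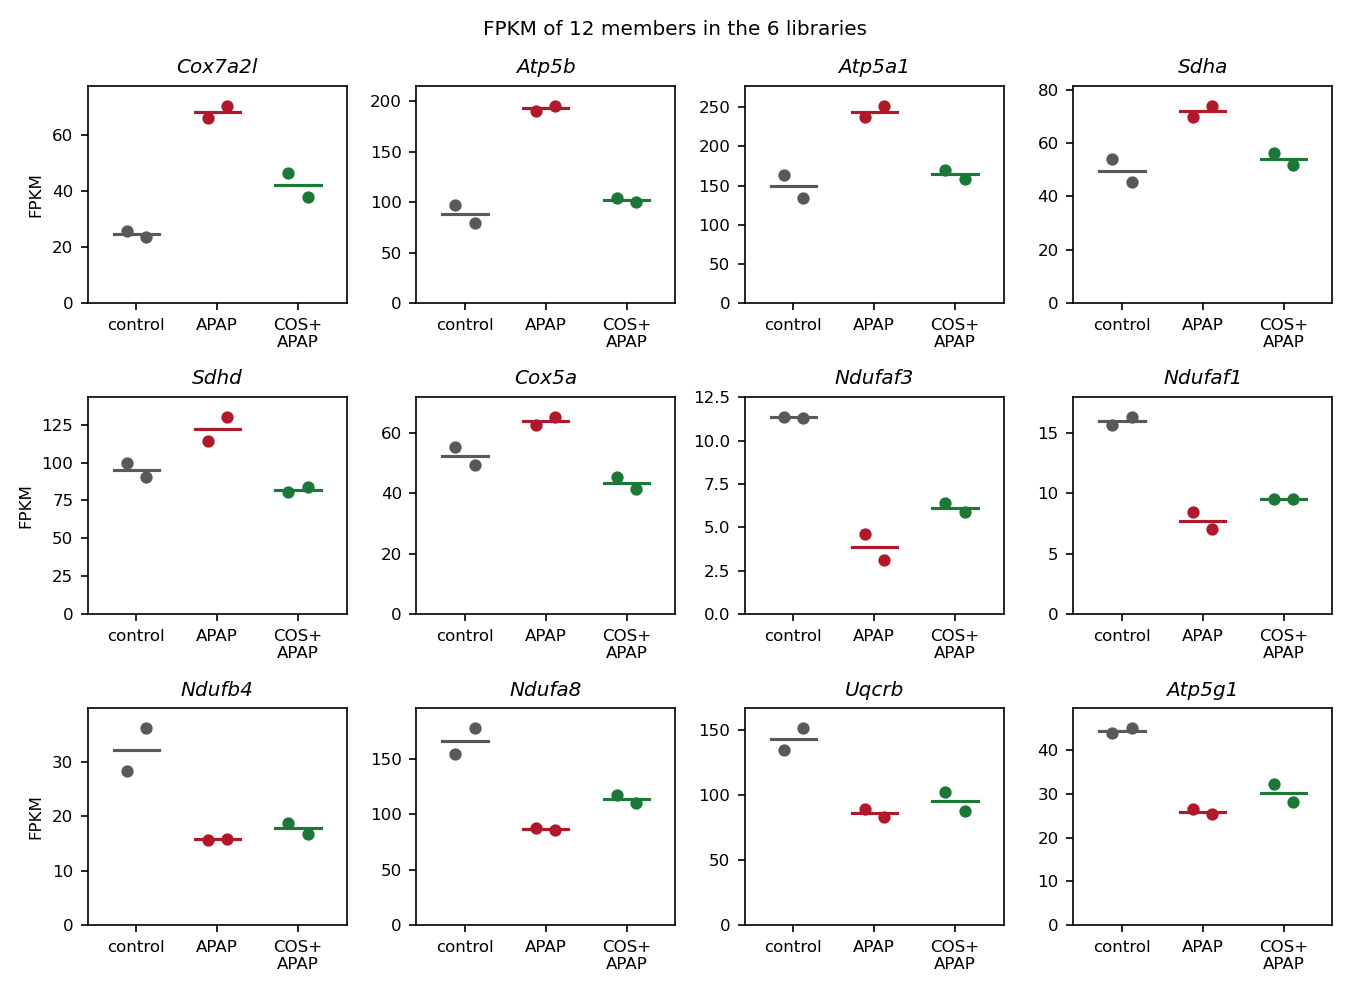
FPKM (linear axes from 0) of 12 members in the 6 libraries. Points are libraries and bars are means of the 2 libraries of a group (grey control, red APAP, green COS+APAP); *Cox7a2l*, *Atp5b*, *Atp5a1* and *Sdha* peak in APAP, and *Ndufaf3*, *Ndufaf1*, *Ndufb4* and *Ndufa8* are lowest there.

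The second comparison set COS+APAP against APAP and asked how the members stood when COS had been given before the same overdose. It shares the APAP libraries with the first, so values of both are given side by side and not as separate evidence. A small number of members differed, and those were lower with COS: the ATP synthase subunits *Atp5b* and *Atp5a1*, *Cox7a2l*, *Sdhd*, *Cox5a* and *Ndufb9*. Of the 91 members 6 were lower (6.59%) and 85 did not pass, where 22.4% of all genes were called, 11.2% higher and 11.1% lower. The count of higher members was 0 in edgeR (3 at an unadjusted p below 0.05, and 3 by DESeq2). The median over the members was -0.01, and 46 of 91 log2 fold changes were negative.

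*Atp5b* had a log2 fold change of -0.89 with COS (SE 0.14, adjusted p = 0.0141), beside 1.27 in APAP against control. *Cox7a2l* had -0.68 (SE 0.13, adjusted p = 0.0228) beside 1.60, and *Atp5a1* -0.55 (SE 0.14, adjusted p = 0.041) beside 0.85. *Sdhd* (-0.55, adjusted p = 0.0256), *Cox5a* (-0.55, adjusted p = 0.0261) and *Ndufb9* (-0.50, adjusted p = 0.0208) were the others. *Sdha* had -0.39 and missed the threshold (adjusted p = 0.0811), as did *Atp5g3* (-0.40, adjusted p = 0.0587) and *Uqcrh* (-0.25, adjusted p = 0.171). *Ndufaf3* had 0.69 (adjusted p = 0.0808) beside -1.42, *Ndufaf7* 0.60 (adjusted p = 0.0794) beside -0.97 and *Ndufa8* 0.41 (adjusted p = 0.0545) beside -0.80, and none of these passed.

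By complex, the called members were 1 in complex I, 1 in complex II, 1 in complex IV and 2 in complex V, beside *Cox7a2l*. Medians were 0.02 in complex I, -0.17 in complex II, -0.17 in complex III, -0.01 in complex IV and -0.13 in complex V, and 0.24 for the Ndufaf factors, of which 7 of 8 were positive. The calls rest on few libraries. Without APAP replicate 1 the lower count is 0 and 2 members are higher, without APAP replicate 3 it is 1, and without COS+APAP replicate 2 or 3 it is 0.

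The third comparison set COS+APAP against control and shares libraries with both others. Members were mostly below control, and 8 of the 11 lower calls were subunits of complex I, which holds 36 of the 91 members. *Cox7a2l* was higher (0.92 on the log2 scale, SE 0.13, adjusted p = 0.0112) and 11 members (12.1%) were lower, where 21.0% of all genes were called, 10.7% higher and 10.3% lower. The log2 fold change was negative for 78 of 91 members (85.7%, beside 48.5% of all genes), with a median of -0.28 (0.02 over all genes). With library totals 1 member is higher and 34 are lower, and the median of all genes moves to -0.16. Lower calls then spread over the complexes, with 17 of 36 in complex I, 1 of 4 in complex II and 5 of 9 in complex III. Complex IV has 2 of 12 lower there and complex V 5 of 17, so the weight on complex I depends on the scaling. The lower count is 0 without control replicate 3 or without COS+APAP replicate 2 or 3, and 5 without control replicate 1. The call of *Cox7a2l* is lost without control replicate 3 (adjusted p = 0.0598).

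The 11 lower members were 8 of complex I, *Sdhb* of complex II (-0.40, adjusted p = 0.0439), *Ndufaf8* (-0.63, adjusted p = 0.0332) and *Ndufaf1* (-0.59, adjusted p = 0.0427). Those of complex I with the largest differences were *Ndufb10* (-0.87, adjusted p = 0.0207), *Ndufa6* (-0.79, adjusted p = 0.0112), *Ndufb4* (-0.71, adjusted p = 0.029) and the core subunit *Ndufs7* (-0.69, adjusted p = 0.0202). Medians were -0.32 in complex I, -0.06 in complex II, -0.25 in complex III, -0.16 in complex IV and -0.23 in complex V. *Cox7a1* had the most negative value (-1.56) at 1.99 and 3.27 FPKM in control and 0.83 and 0.75 in COS+APAP, and did not pass (adjusted p = 0.0523).

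Summed FPKM of a complex, which is scaled to library totals and weighted to its abundant members, was lower in the 4 treated than in the 2 control libraries for complexes I, III and IV. For complex I it was 2176 and 2395 in control, 1716 and 1754 after APAP, and 1722 and 1592 with COS+APAP. For complex III it was 1173 and 1243 in control, 1015 and 1028 after APAP, and 966 and 882 with COS+APAP. For complex IV it was 2135 and 2230 in control, 1826 and 1666 after APAP, and 1823 and 1634 with COS+APAP. The treated groups overlapped for complexes I and IV, while for complex III COS+APAP lay below APAP. Complex V summed to 1369 and 1416 in control, 1381 and 1401 in APAP, where higher *Atp5b* and *Atp5a1* stood beside lower smaller subunits, and 1180 and 1089 in COS+APAP. Complex II summed to 292.1 and 266.9, then 277.2 and 304.2, then 239.0 and 232.4. FPKM over all genes also summed lower in the 4 treated libraries, at 474541.6 to 517288.5, than in control, at 526714.4 and 561227.6. The near-equal sums of complex V in control and APAP are therefore not equal shares of the total. Gaps and overlaps between groups in these sums hold on the FPKM scale only. These sums are a description and were not tested.

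Partners of the members were described from lists chosen with earlier results of these data known. Over all genes tested, 23.3% were higher and 22.1% lower after APAP, and 11.2% higher and 11.1% lower with COS against APAP. The 13 proteins of the mitochondrial genome complete complexes I, III, IV and V. After APAP 10 of the 13 were lower, with a median of -0.76. In complex I the median was -0.80 over 7 mitochondrial genes beside -0.32 over the 36 nuclear ones, in complex IV -0.76 over 3 beside -0.30 over 12, and in complex V -0.70 over 2 beside -0.20 over 17. With COS against APAP all 13 had positive log2 fold changes, with a median of 0.52 and 4 called, beside a median of -0.02 over the 78 nuclear subunits. The difference between the nuclear and mitochondrial sets was not tested.

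Other assembly factors, without an Nduf name, help to build all 5 complexes. Of 44 tested, 2 were higher and 24 lower after APAP (median -0.70), and 11 were higher and 2 lower with COS against APAP (median 0.26). *Bcs1l*, which inserts the Rieske protein into complex III, was at 5.18 and 6.91 FPKM in control, 1.78 and 1.98 after APAP, and 3.06 and 3.07 with COS+APAP, a change of -1.54 (adjusted p = 0.00311) and then 0.72 (adjusted p = 0.0467). *Sdhaf1*, which helps load iron-sulfur clusters into *Sdhb* protein, was at 6.31 and 5.34 FPKM in control, 1.77 and 2.21 after APAP, and 6.15 and 6.24 with COS+APAP, -1.42 (adjusted p = 0.00297) and then 1.66 (adjusted p = 0.00695). In both genes APAP was lowest in both of its libraries.

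*Atpaf1*, a chaperone of the F1 beta subunit, fell after APAP (-1.24, adjusted p = 0.0116) and was higher with COS than with APAP (1.29, adjusted p = 0.0219). These signs are opposite to those of *Atp5b*, the subunit it binds. *Tmem126b* of the complex I assembly machinery (-1.35, adjusted p = 0.00227), *Sdhaf4* of complex II (-1.48, adjusted p = 0.00248) and *Cox20* of complex IV (-1.51, adjusted p = 0.0044) fell as well. *Sco2*, a copper chaperone of complex IV known as a target of p53, rose by 1.90 (SE 0.41, adjusted p = 0.0145) and was lower with COS than with APAP (-1.89, adjusted p = 0.0286). Mitochondrial ribosomal proteins, which make the mitochondrial subunits, were lower after APAP in 43 of 78 (median -0.48), and 13 were higher and 2 lower with COS against APAP.

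**Figure D4:**
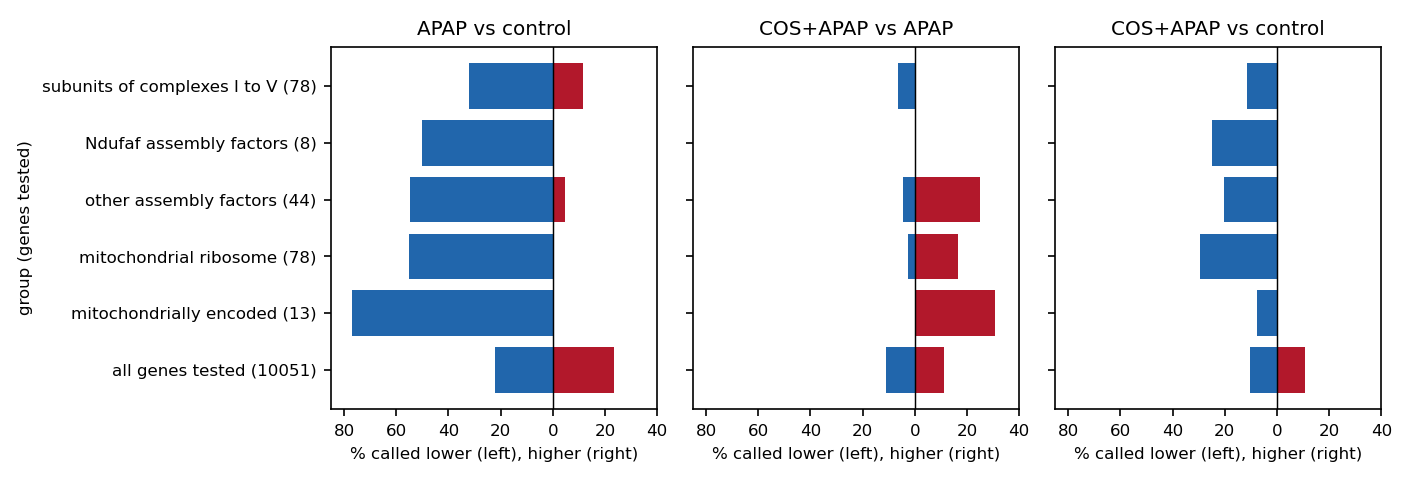
Share of genes called (x axis, percent; higher to the right in red, lower to the left in blue) in groups of mitochondrial genes and over all genes tested, with the number of genes in brackets. In the left panel the assembly factors, mitochondrial ribosome and mitochondrially encoded genes reach further to the left than the nuclear subunits, and in the middle panel the nuclear subunits have no bar to the right.

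Among 16 tested regulators of respiratory genes, 3 were higher and 3 lower after APAP, where 23.3% of all genes were higher and 22.1% lower. The regulator counts were not tested against these shares. *Ppargc1b* and *Pprc1*, coactivators of the PGC-1 family, rose by 2.07 (adjusted p = 0.00253) and 1.56 (adjusted p = 0.00243) and were lower with COS than with APAP (-0.92, adjusted p = 0.0395, and -0.75, adjusted p = 0.0334). *Ppargc1a*, the best known of that family, was at 0.78 and 0.74 FPKM in control, 0.65 and 0.77 after APAP, and 2.64 and 1.84 with COS+APAP. It did not differ detectably after APAP (0.03, adjusted p = 0.916) and was higher with COS than with APAP (1.68, adjusted p = 0.0105) and than in control (1.71, adjusted p = 0.00877). *Tfam* (0.17), *Gabpa* (0.37), *Yy1* (0.14) and *Esrra* (-0.53) did not pass after APAP. *Slirp*, which stabilises mitochondrial mRNA, fell by 1.29 (adjusted p = 0.00285).

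Neighbouring pathways were mixed after APAP, where 23.3% of all genes were higher and 22.1% lower. Their counts were not tested against these shares. In the citric acid cycle 4 of 14 were higher and 1 lower, with *Sucla2* highest (0.97, adjusted p = 0.00234). Of 12 coenzyme Q synthesis genes 1 was higher (*Coq8b*, 1.07) and 3 were lower (*Coq5*, -1.05). Among 7 other enzymes that feed coenzyme Q, 1 was higher and 2 were lower. *Etfdh* rose by 1.33 (adjusted p = 0.00438), and *Prodh* had the larger of the 2 falls, by 1.58 (adjusted p = 0.00662). Of 9 carriers 2 were higher and 1 was lower, and of 18 genes of inner membrane organisation 4 were higher and 1 was lower.

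Coding length and cell markers were described beside these results. The members have short coding sequences. By coding length, with bounds at 336 and 528 bases, 10 of 30 short members (33.3%) were lower after APAP beside 34.4% of 314 short genes tested, 10 of 29 in the middle (34.5%) beside 28.9% of 700, and 9 of 29 long ones (31.0%) beside 21.9% of 7660. Higher calls took 3.33%, 13.8% and 17.2% of the members and 9.87%, 16.4% and 26.7% of all. Among short genes the share of lower members was thus near that of all. The rank correlation (Spearman) of coding length with the log2 fold change after APAP was 0.116 over 88 members and 0.174 over 8674 coding genes. The 6 tested pericentral hepatocyte markers were all lower after APAP and all higher with COS against APAP, with summed FPKM of 3298 and 2563 in control, 901.8 and 1309 after APAP, and 3335 and 2747 with COS+APAP. Of 5 tested erythroid markers 4 were higher after APAP, with summed FPKM of 297.6 and 269.4 in control, 1492 and 1075 after APAP, and 309.4 and 316.4 with COS+APAP; 4 were lower with COS against APAP. Of 4 tested monocyte and neutrophil markers 2 were higher after APAP and 2 lower with COS against APAP, with sums of 5.64 and 7.71 FPKM, then 63.8 and 25.2, then 6.61 and 4.63. These 3 lists thus differed in APAP and stood near control with COS+APAP.

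Several markers of sinusoidal endothelium and stellate cells were lower with COS+APAP. Of 8 sinusoidal endothelium markers 6 were lower against APAP (median log2 fold change -1.41) and 4 against control (-0.81), with sums of 27.6 and 34.6 FPKM in control, 40.6 and 37.5 after APAP, and 18.7 and 15.3 with COS+APAP. Of 5 tested stellate cell markers 4 were lower against APAP (-1.29) and 3 against control (-0.85), with sums of 78.4 and 74.1, then 89.0 and 85.9, then 54.6 and 32.1. In both lists COS+APAP lay below all other libraries. Cholangiocyte markers had 2 of 3 lower against APAP. Of 8 Kupffer cell markers 3 were higher after APAP, and with COS against APAP 1 was higher and 1 lower. Of 8 periportal hepatocyte markers 3 were higher after APAP, and with COS against APAP 1 was higher and 3 lower. Of the lymphocyte and adipose lists 1 and 2 genes were tested, and 1 of each was higher after APAP. The part of length and cell makeup in the results was not tested.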

How the data were processed

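Poly(A) RNA of 6 mouse liver libraries was sequenced in read pairs, per the labels' protocols. The submitters' processing notes name HISAT2 2.0, an aligner, and StringTie 1.3.0, an assembler. Genome build and strand setting of the counting are not given in the sources used here. Coordinates are those of the deposited table, where 78 of the 91 members have the coordinates of mouse GENCODE M21 (GRCm38). Per the file headers, the authors deposited an estimated count for each gene and library. FPKM values, scaled for depth and transcript length, stand beside them in the deposited table. Another 6 columns of values matched no sample and were not used.

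The estimated counts were already whole numbers and entered edgeR 4.0.16 (R 4.3.3) with TMM scaling, in 1 quasi-likelihood model of the 3 groups over the 6 libraries. Genes with a mean of at least 1 FPKM were tested (10051), with Benjamini-Hochberg adjustment over all of them, two-sided, and an adjusted p below 0.05 was called. The test was tried on simulated counts. Depth was 71115112 to 76669799 counts per library. Alternatives were other scalings, DESeq2 1.42.0, limma 3.58.1 on log2(FPKM + pseudocount), other filters, the 2 groups alone, a replicate block and leaving out each library. Motifs were searched in RefSeq promoter windows (GRCm38.p6). A bulk profile of 2 libraries a group limits precision to the spread the groups share.

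Named members were, in each comparison and class, the called members with the largest rises and falls, every called member that differs at least 2-fold, the most and least abundant of each complex, isoform sets and those next to the level threshold, and for other lists the called gene of largest rise and fall. The values of 1 member that the rule names are not reported here, though it is in all counts. Further members and genes were named after their values were seen. Members and lists were chosen with earlier results of these data known. Genes with similar copies in the deposited table can share reads with them. Such genes include *Ndufb4*, *Ndufa12*, *Ndufab1*, *Ndufs5*, *Ndufs6*, *Cox5b*, *Cox6c*, *Cox7c*, *Uqcrh*, *Atp5k*, *Atp5l* and *Atp5pb*. A further 13 members, some of them among these, overlap another gene of at least 1 FPKM.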

Additional observations from a re-analysis of the deposited data

How the results depend on the processing

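For APAP against control, the 10 higher members became 4 with library totals in place of TMM, 4 by limma on log2(FPKM + 1), 4 by limma on log2(FPKM + 0.1) and 4 with a replicate block, and the 30 lower ones became 43 with library totals and 13 with the replicate block. Replicate numbers pair nothing known: deviations of control and APAP libraries with the same number correlated at r = 0.0175 over 10051 genes. The block was fitted for APAP against control only, since COS+APAP shares a single replicate number with each of the other groups. For COS+APAP against APAP, DESeq2 gave 3 higher and 13 lower members, and testing every gene with a value above 0 in at least 2 libraries gave 3 lower. For COS+APAP against control, the 11 lower members became 34 with library totals, 31 by DESeq2, 31 by limma with a pseudocount of 1, 29 with a pseudocount of 0.1 and 4 without the filter. Leaving out each library in turn gave 4 to 10 higher and 12 to 26 lower members for APAP against control, 0 to 2 and 0 to 6 for COS+APAP against APAP, and 0 to 1 and 0 to 9 for COS+APAP against control. No called member changed sign in these leave-one-out fits. Under DESeq2's size factors, TMM without mitochondrial transcripts, the filter at 5 FPKM and fits of 2 groups alone, all 3 comparisons kept their counts within 1.5 times. Library totals shift the median of all genes from -0.00 to -0.15 for APAP against control. The cause of these changes was not tested. Precision is limited by 2 libraries a group: the median SE of a member was 0.13 on the log2 scale, beside a median log2 fold change of -0.27 for APAP against control.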

Other observations

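Rows whose names hold -ps were left out of the members, and some were well expressed. *Ndufb1-ps*, typed as protein-coding in the deposited table and the mouse copy of an accessory subunit of complex I, was at 46.0 and 59.2 FPKM in control, 30.9 and 31.8 after APAP, and 38.4 and 33.1 with COS+APAP. *Cox5b-ps*, also typed as protein-coding, was at 48.9 and 51.9 FPKM in control, 28.1 and 36.7 after APAP, and 43.4 and 36.2 with COS+APAP. In both rows all 4 treated libraries lay below the control libraries. The pseudogene row *Ndufa12-ps* had a mean of 74.0 FPKM, above the 13.2 to 24.1 FPKM of *Ndufa12* in single libraries. In estimated counts, which are not divided by length, the 2 rows overlapped, at 2058 to 3011 for *Ndufa12-ps* and 1645 to 3056 for *Ndufa12*.

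*Ndufa4l2*, an isoform of the complex IV subunit *Ndufa4* that is known to be induced by low oxygen, was just under the level threshold. Its FPKM was 1.49 and 2.06 in control, 0.42 and 0.29 after APAP, and 0.80 and 0.62 with COS+APAP, with no overlap between the groups. *Ndufa4l2* was left out of the main test, and its values in the fit without the level filter are not given here.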
